A study of Mus musculus with 14 samples.

Results

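*Sgk1* and 8 further genes of epithelial sodium absorption were examined in mouse colon, 9 of the 19096 genes named on the array. The members were found as every probe whose transcript accession belongs to *Sgk1*, *Scnn1a*, *Scnn1b*, *Scnn1g*, *Nedd4l*, *Nr3c2*, *Hsd11b2*, *Atp1b1*, or *Fxyd4*, and all 9 genes were found, on 12 of 41174 probes. *Nr3c2* had 3 probes, *Scnn1a* had 2, and each of the others had 1. Levels are the values of the authors' table, the log2 of the scanner signal after quantile normalization between arrays, and where a gene had several probes, the brightest on average stands for it.

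All mice were male C57BL/6 animals on a chow diet whose adrenal glands had been removed (ADX), which takes away the adrenal supply of glucocorticoids and aldosterone. Flox mice carry GR alleles flanked by loxP sites and keep the glucocorticoid receptor (GR), and GR iKO mice carry the same alleles with Villin-cre, a transgene active in the intestinal epithelium, so that GR is deleted there and not in muscle, immune, or stromal cells. At 2 weeks after ADX the mice received dexamethasone (DEX, a synthetic glucocorticoid) at 1 mg/kg or the PBS vehicle, and colon was collected 6 hours later. According to the labels the mice were 6 to 8 weeks old at ADX and 8 to 10 weeks old at collection, while the methods of the study give an older age at ADX. With PBS there were arrays of 4 Flox and 3 GR iKO mice (replicates 2, 3, and 4), and with DEX of 3 Flox (replicates 1, 2, and 4) and 4 GR iKO mice, 14 in all.

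Sodium enters a colonocyte from the lumen through the epithelial sodium channel (ENaC, built from the products of *Scnn1a*, *Scnn1b*, and *Scnn1g*) or in exchange for protons, and the sodium pump moves it out to the blood side. Aldosterone, acting on the mineralocorticoid receptor (*Nr3c2*), raises ENaC activity in the distal colon, and glucocorticoids can do so through GR. The kinase SGK1 is induced by both hormones and phosphorylates the ubiquitin ligase NEDD4-2 (*Nedd4l*), which otherwise removes ENaC from the cell surface, while 11β-hydroxysteroid dehydrogenase type 2 (*Hsd11b2*) inactivates natural glucocorticoids in aldosterone target cells.

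*Sgk1* had the highest change of the members, and its upstream sequence is shown because it holds a motif that few promoters hold. In a RefSeq table of assembly GRCm38.p6, 6 of the 9 members had promoter entries, with 11 promoters in all and 6 of them for *Sgk1*. The 250 bases before each start were searched for AGAACA on either strand (read as TGTTCT on the other), which is the core of a GR binding site, and for the paired form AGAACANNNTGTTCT. The core was found in 3 of the 11 promoters, all of *Sgk1*, and in 16.1% of the 32851 promoters in the table. The paired form was found in 1 of the 11, the fifth *Sgk1* promoter, and in 3 of 32851 (0.00913%), and its cores begin 189 and 180 bases before the start, with a further core at 242 bases. The sequences of the fifth *Sgk1* promoter (chr10:21993640-21993889, plus strand), the *Scnn1b* promoter (chr7:121864788-121865037, plus strand), and the *Scnn1g* promoter (chr7:121734229-121734478, plus strand) are given 5′ to 3′, with each core in capitals.
Sgk1: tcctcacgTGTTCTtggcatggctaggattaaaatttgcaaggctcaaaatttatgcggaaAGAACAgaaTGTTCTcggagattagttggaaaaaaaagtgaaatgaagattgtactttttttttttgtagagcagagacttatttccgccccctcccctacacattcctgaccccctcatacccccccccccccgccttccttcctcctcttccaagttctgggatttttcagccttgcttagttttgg
Scnn1b: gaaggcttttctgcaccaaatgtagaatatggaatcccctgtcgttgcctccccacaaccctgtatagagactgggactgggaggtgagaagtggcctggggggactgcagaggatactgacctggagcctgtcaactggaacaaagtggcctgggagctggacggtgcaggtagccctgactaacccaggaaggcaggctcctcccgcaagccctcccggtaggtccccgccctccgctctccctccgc
Scnn1g: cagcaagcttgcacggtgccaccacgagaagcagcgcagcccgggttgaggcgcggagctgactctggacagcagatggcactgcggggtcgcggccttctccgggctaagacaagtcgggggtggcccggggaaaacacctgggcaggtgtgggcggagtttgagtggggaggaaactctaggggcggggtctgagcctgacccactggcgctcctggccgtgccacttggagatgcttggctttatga
These *Scnn1b* and *Scnn1g* windows hold no core, which says only that the letters are not in these windows. A match is a description of the sequence, and GR binding was not measured here.

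Per array, 28281 to 30501 probes stood well above background, and the 75th percentile of the scanner intensity ran from 593 to 818. Each group was hybridized on 1 slide that held no other group, so that slide and group cannot be told apart in any comparison. All 8 epithelium markers (*Epcam*, *Cdh1*, *Krt8*, *Krt18*, *Krt19*, *Krt20*, *Vil1*, and *Cdx2*) were well above background on every array, and their mean log2 level ran from 15.76 to 16.09. The 9 exocrine pancreas markers differed widely within groups, with a mean log2 level of 6.97 to 16.86 in Flox mice given DEX, 6.26 to 15.11 in Flox mice given PBS, 6.71 to 13.66 in GR iKO mice given DEX, and 6.19 to 6.42 in GR iKO mice given PBS. Of the genes that mark position along the gut, *Hoxb13*, which is expressed in the distal colon, was at 5.59 in replicate 2 of the GR iKO mice given PBS and at 8.68 in replicate 2 of the GR iKO mice given DEX, against 11.10 to 14 on the other arrays. *Hoxb6*, a gene of more proximal gut, was at 12.26 and 11.76 on those same arrays and at 7.35 to 10.01 on the others. The mean of the 5 distal position genes was 3.99 and 5.40 there, against 5.72 to 7.62 on the others. In replicate 2 of the GR iKO mice given DEX, *Hoxd13* (1.47) and *Hoxd12* (5.21) were also the lowest of the group. *Hoxa13* (7.94) and *Hoxd11* (3.69) were not. These arrays were set apart by *Hoxb13* alone, at a level under 10. Fits without these arrays, with the pancreas marker mean as a covariate, or with the distal minus proximal position mean as a covariate were added after the data had been seen, and their values are given where they end a call or bear on a result.

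**Figure D1:**
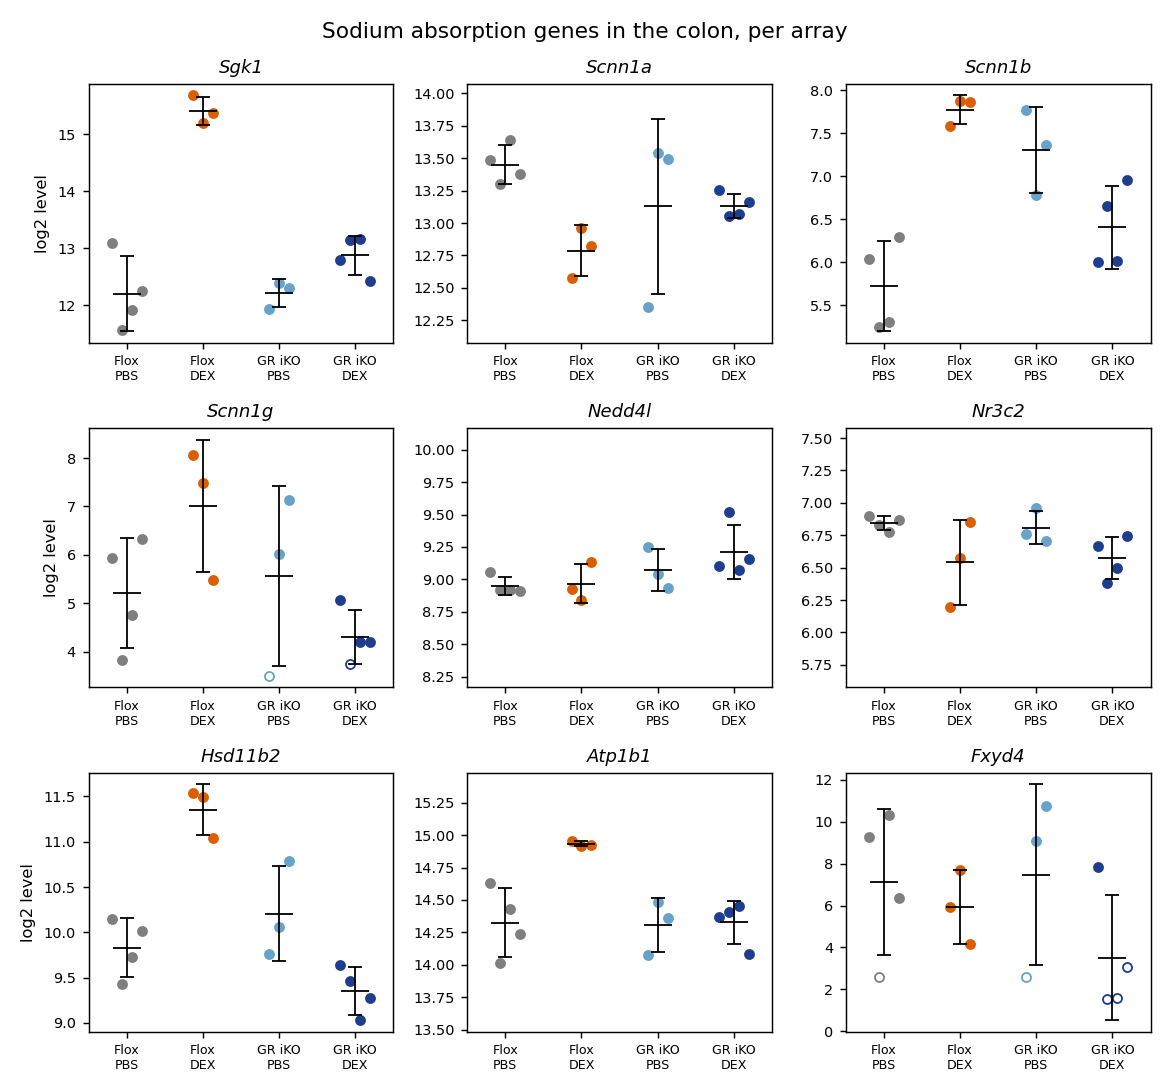
Log2 level (quantile normalized, y axes differ between panels) of the 9 genes on each array, with 1 point per mouse. Black bars give the group mean and SD, and open points are arrays where the probe was not well above background. The 3 Flox mice given DEX lie above all other arrays for *Sgk1*, *Hsd11b2*, and *Atp1b1*, while *Fxyd4* runs from 1.54 to 10.76 across the arrays.

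The first question was how DEX changes these genes when epithelial GR is present. In Flox mice, *Sgk1*, *Scnn1b*, and *Hsd11b2* rose with DEX, none of the 9 genes fell, and 6 were not called. A call needed a Benjamini-Hochberg adjusted p under 0.05 over all probes and a change of at least 2-fold in a limma fit of all 14 arrays. Across the array, 1.53% of probes were called in this comparison, 0.622% higher and 0.911% lower. The median log2 change of the 9 genes was 0.61, against 0.008 over all probes. In RNA from whole colon, fewer cells of a type and less RNA per cell cannot be told apart.

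*Sgk1* had log2 levels of 13.10, 11.56, 11.92, and 12.25 in the 4 Flox mice given PBS and of 15.69, 15.19, and 15.37 in the 3 given DEX. The groups lay more than the spread of either apart, and replicate 1 of the PBS group was its highest array. The mean rose from 12.21 ± 0.66 (SD, n = 4) to 15.42 ± 0.25 (SD, n = 3), a log2 change of 3.21 (SE 0.31) or 9.25-fold (95% CI 5.74 to 14.9), with a limma adjusted p of 0.000914. *Sgk1* was called in each of the 14 fits that left out 1 array, with changes of 2.99 to 3.51.

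Of the ENaC subunit genes, 1 of 3 passed the test. *Scnn1b*, which encodes the β subunit, was at 6.03, 5.25, 5.31, and 6.29 with PBS and at 7.59, 7.87, and 7.87 with DEX in Flox mice. Every DEX array was above every PBS array, and the log2 change was 2.06 (SE 0.33, limma adjusted p = 0.00805), or 4.16-fold (95% CI 2.53 to 6.82). With normexp background correction the *Scnn1b* change was 1.19 and was called (limma adjusted p = 0.00373). *Scnn1g*, which encodes the γ subunit, was at 5.93, 3.83, 4.75, and 6.32 with PBS and at 8.07, 7.49, and 5.47 with DEX, so that replicate 4 of the DEX group lay within the PBS range. Its log2 change of 1.80 (95% CI −0.13 to 3.74) was not called (limma adjusted p = 0.3), and it ran from 1.27 to 2.57 leaving out 1 array and was 0.86 with normexp.

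*Scnn1a*, which encodes the α subunit, differed the other way on both of its probes without being called. The brighter probe read 13.49, 13.30, 13.64, and 13.38 with PBS and 12.58, 12.96, and 12.82 with DEX, and the groups did not overlap. Its log2 difference was −0.66 (95% CI −1.19 to −0.14, limma adjusted p = 0.153), and that of the dimmer probe was −0.77 (limma adjusted p = 0.163). The fitted differences of the α and β subunits had opposite signs in the same mice, and a difference between subunits was not tested.

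*Hsd11b2*, the steroid-inactivating enzyme, was at 10.15, 9.43, 9.73, and 10.02 with PBS and at 11.54, 11.49, and 11.04 with DEX. Again the groups did not overlap, and the log2 change was 1.52 (SE 0.25, limma adjusted p = 0.00991), or 2.87-fold (95% CI 1.96 to 4.23). Without replicate 1 of the DEX group the change was 1.43 and was not called (limma adjusted p = 0.0537). *Atp1b1*, the β1 subunit of the sodium pump, was at 14.63, 14.01, 14.43, and 14.23 with PBS and within 14.92 to 14.96 on the 3 DEX arrays, which was the narrowest spread of any gene and group here. Its log2 difference of 0.61 had an adjusted p under the threshold (limma adjusted p = 0.0456) but was 1.52-fold, less than the required 2-fold.

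*Nedd4l*, the ligase gene, read 8.91 to 9.06 with PBS and 8.84 to 9.14 with DEX, a difference of 0.02 (95% CI −0.25 to 0.28), and its interval holds no change of 2-fold. The 3 probes of *Nr3c2*, the mineralocorticoid receptor gene, differed by −0.30, −0.17, and −0.59, and none was called (lowest limma adjusted p = 0.167). *Fxyd4*, which encodes a small regulator of the sodium pump also known as CHIF, read 9.28, 2.58, 10.31, and 6.34 with PBS and 5.92, 7.68, and 4.15 with DEX. It varied so much within groups that its difference of −1.21 had a 95% CI from −6.29 to 3.87.

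In all, 4 of the 9 genes (*Sgk1*, *Scnn1b*, *Hsd11b2*, and *Atp1b1*) were higher on every DEX array than on every PBS array of Flox mice, against 10.2% of all probes, and 1 (*Scnn1a*) was lower on every DEX array, against 10.5%. Other cell type and position markers also differed between these groups. The 5 distal position genes had a mean log2 level of 5.77 to 6.83 with DEX and 6.98 to 7.62 with PBS, the 6 smooth muscle markers 15.25 to 15.86 and 14.64 to 15.05, and the 7 small intestine markers 7.94 to 8.61 and 6.45 to 7.29, respectively. The 4 proximal position genes stood at 5.27 to 5.69 and 4.48 to 4.89, and the 6 B or plasma cell markers at 7.74 to 8.28 and 8.52 to 9.37. Of the proximal genes, 2 (*Hoxb8* and *Hoxc8*) were well above background on no array of either group, and the distal gene *Hoxd11* on no DEX array. The log2 changes of the distal genes ran from −2.59 to 0.59. The small intestine markers did not move together either. Of these 7, 2 were called higher and 1 lower with DEX, against 1.53% of all probes called, with log2 changes from −1.1 to 5.72. With the position mean as a covariate, the log2 changes were 3.29 for *Sgk1*, 1.85 for *Scnn1b*, and 1.68 for *Hsd11b2*, and with the pancreas mean as a covariate they were 3.40, 2.09, and 1.53. All were called in both fits, and the part of the smooth muscle, small intestine, and B or plasma cell markers in these differences was not tested.

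The same question was asked of mice without epithelial GR. In GR iKO mice, none of the 9 genes was called, against 4.26% of all probes, of which 2.68% were called higher and 1.58% lower. *Hsd11b2* and *Scnn1b* had an unadjusted limma p under 0.05, both toward lower values with DEX. Across all 41174 probes, 12103 had such a p in either direction. Of the probes called higher, 942 of 1103 lay on rows 355 to 532, the last of 3 parts of the array, where the *Hsd11b2* probe (row 416) and the dimmer *Scnn1a* probe (row 413) lie and the other 10 probes do not. The median log2 change of the 9 genes was −0.24, against −0.02 over all probes. Marker means that did not overlap between DEX and PBS in these mice were those of T cells (5.70 to 5.94 and 6.14 to 6.53, with 2 of 6 markers called lower), fibroblasts (12.14 to 12.40 and 12.56 to 12.67), goblet cells (16.49 to 16.74 and 16.26 to 16.31), and exocrine pancreas (6.71 to 13.66 and 6.19 to 6.42). Of the 6 B or plasma cell markers, 1 was called lower. Of the 7 small intestine markers, 1 was called higher and 1 lower, with log2 changes from −1.18 to 4.09. The part of these markers in the members' differences was not tested.

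*Sgk1* read 11.93, 12.39, and 12.31 in the GR iKO mice given PBS and 12.79, 13.14, 13.16, and 12.43 in those given DEX. The groups lay close without overlap, replicate 4 of the DEX group being 0.04 above the highest PBS array, and 13.4% of all probes were likewise higher on every DEX array. The log2 difference of 0.67 (95% CI −0.02 to 1.36) was not called (limma adjusted p = 0.181). *Scnn1b* read 7.77, 6.78, and 7.36 with PBS and 6.00, 6.65, 6.01, and 6.96 with DEX, where replicate 4 of the DEX group reached into the PBS range, and its difference was −0.90 (95% CI −1.61 to −0.18, limma adjusted p = 0.0929).

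*Hsd11b2* read 9.77, 10.06, and 10.79 with PBS and 9.65, 9.46, 9.03, and 9.28 with DEX. Every DEX array was below every PBS array, as were 15% of all probes, with a log2 difference of −0.85 (95% CI −1.41 to −0.30, limma adjusted p = 0.0495) that was less than 2-fold. Without replicate 2 of the PBS group, one of the arrays with low *Hoxb13*, the difference was −1.07 and was called (limma adjusted p = 0.0282), and without replicate 4 of that group it was −0.56 (limma adjusted p = 0.167). Quantile normalization within each of the 3 parts of the array rows gave −0.82 (limma adjusted p = 0.0596).

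The other 6 genes had no called difference in GR iKO mice. *Scnn1g* read 3.51, 6.03, and 7.13 with PBS and 5.07, 3.74, 4.21, and 4.20 with DEX, a difference of −1.25 (95% CI −3.18 to 0.69) that was −2.27 without replicate 2 and −0.46 without replicate 4 of the PBS group. *Atp1b1* (0.02), *Nedd4l* (0.14), *Nr3c2* (−0.24), and *Scnn1a* (0.01) differed by little on their brightest probes, and none of these 4 intervals held a 2-fold change. On the dimmer *Scnn1a* probe the difference was −0.54 (95% CI −1.16 to 0.08, limma adjusted p = 0.234), and that interval did hold one. *Fxyd4* differed by −3.95, with a 95% CI from −9.03 to 1.14.

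The 2 remaining comparisons of groups asked what loss of epithelial GR does at each treatment. They share their arrays with those above, so the same mice stand on both sides. Under PBS, none of the 9 genes was called, against 0.138% of probes, 0.0923% higher and 0.0461% lower. *Scnn1b* was the one gene whose arrays did not overlap, at 6.78 to 7.77 in GR iKO mice and 5.25 to 6.29 in Flox mice, no gene was lower on every GR iKO array, and the shares of all probes were 4.55% higher and 3.66% lower on every GR iKO array. It was also the one gene with an unadjusted limma p under 0.05, against 3400 of all 41174 probes in either direction. The log2 difference of 1.58, or 3.00-fold (95% CI 1.83 to 4.92), did not pass the test (limma adjusted p = 0.116), and it did with normalization within each of the 3 parts of the array rows (1.63, limma adjusted p = 0.0324), while normexp gave 0.88 (limma adjusted p = 0.133). *Sgk1* had the same mean of 12.21 in both genotypes, a difference of 0.00 (95% CI −0.68 to 0.69). Marker means that did not overlap were those of T cells (6.14 to 6.53 in GR iKO and 5.56 to 6.02 in Flox mice) and goblet cells (16.26 to 16.31 and 16.35 to 16.64). Their part in the members' differences was not tested.

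Under DEX, *Sgk1* and *Hsd11b2* were lower without epithelial GR, no gene was higher, and 7 were not called, against 0.109% of all probes called lower, 0.0826% called higher, and 0.192% called either way. *Sgk1* was lower by a log2 difference of −2.54 (SE 0.31, limma adjusted p = 0.0108), to 0.172 of the Flox level (95% CI 0.107 to 0.277). *Hsd11b2* was lower by −2.0 (SE 0.25, limma adjusted p = 0.0125), to 0.25 of the Flox level (95% CI 0.170 to 0.366). Neither was called without replicate 1 of the Flox mice given DEX, where the differences were −2.40 for *Sgk1* (limma adjusted p = 0.0583) and −1.91 for *Hsd11b2* (limma adjusted p = 0.0587).

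Below the threshold, 3 more genes were lower on every GR iKO array under DEX, which made 5 of 9, against 7.61% of all probes. These were *Scnn1b* at −1.37 (limma adjusted p = 0.0896), *Scnn1g* at −2.71 (limma adjusted p = 0.180), and *Atp1b1* at −0.61 (limma adjusted p = 0.0929). The brighter *Scnn1a* probe was higher on every GR iKO array, by 0.35 (limma adjusted p = 0.543), as were 8.34% of all probes. On the dimmer *Scnn1a* probe the groups overlapped and the difference was −0.05. Leaving out 1 array moved the *Scnn1g* difference from −3.48 to −2.18, and normexp gave −1.15. *Nedd4l* differed by 0.24, *Nr3c2* by 0.03, and *Fxyd4* by −2.40, with overlapping groups. The smooth muscle markers (14.93 to 15.66 in GR iKO and 15.25 to 15.86 in Flox mice), the small intestine markers (7.34 to 8.29 and 7.94 to 8.61), and the distal position genes (5.40 to 7.17 and 5.77 to 6.83) overlapped between these groups. The 6 T cell markers did not, with a mean log2 level of 5.70 to 5.94 in GR iKO and 5.37 to 5.65 in Flox mice, and their part in these differences was not tested.

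**Figure D2:**
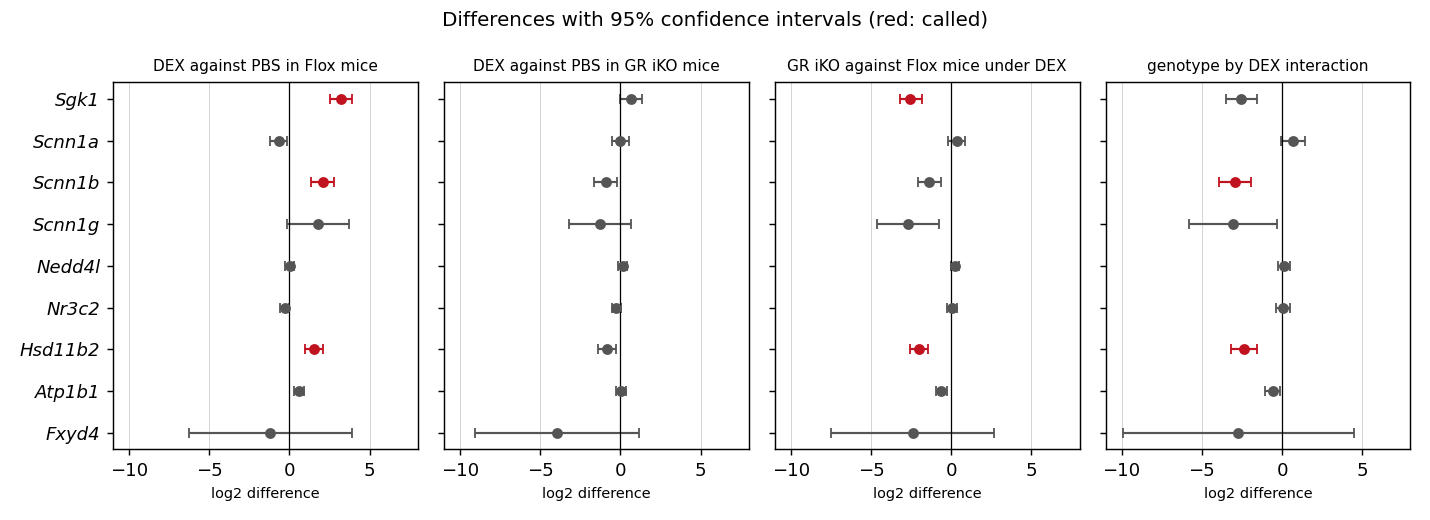
Log2 differences of the 9 genes in 4 contrasts (x axis), as points with their 95% confidence intervals. Red marks the differences that were called, and the interaction is the DEX response in GR iKO less that in Flox mice. The interval of *Fxyd4* is the widest in each contrast, and those of *Nedd4l* and *Nr3c2* include 0 and lie within 1 on either side of it.

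Whether the DEX response itself differed between the genotypes was tested with the interaction, the response in GR iKO less that in Flox mice. *Scnn1b* and *Hsd11b2* were called, both toward lower values, and 7 genes were not, against 0.136% of all probes called, 0.0413% lower and 0.0947% higher. The fitted responses of these genes had opposite signs in the genotypes, and those in GR iKO mice were not called themselves. For *Scnn1b* the responses were 2.06 and −0.90 and the difference was −2.95 (95% CI −3.96 to −1.94, limma adjusted p = 0.0327). For *Hsd11b2* they were 1.52 and −0.85 and the difference was −2.37 (95% CI −3.16 to −1.59, limma adjusted p = 0.0312). The PBS groups entered the *Scnn1b* difference with their own gap of 1.58 between the genotypes.

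The *Sgk1* responses of 3.21 and 0.67 differed by −2.54 (95% CI −3.51 to −1.57), which just missed the threshold (limma adjusted p = 0.0528). It was called in 4 of 11 alternative fits, among them the one on scanner signal scaled to the 75th percentile (−2.54, limma adjusted p = 0.0474). *Scnn1g* (−3.05), *Atp1b1* (−0.59), and *Fxyd4* (−2.73) had differences of the same sign that were not called, with limma adjusted p of 0.319, 0.256, and 0.759. That of *Scnn1g* ran from −4.08 to −2.26 leaving out 1 array and was −1.38 with normexp.

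These interaction calls depended on which arrays were used. *Scnn1b* was called in 7 of the 14 fits that left out 1 array, and it was lost without replicate 1 or 2 of the Flox mice given DEX (limma adjusted p = 0.0735 and 0.0766), replicate 3 of the Flox mice given PBS (0.0662), replicates 1, 2, or 3 of the GR iKO mice given DEX (0.0719, 0.0569, and 0.0655), or replicate 4 of the GR iKO mice given PBS (0.0586). *Hsd11b2* was also called in 7 of the 14, and was lost without replicate 1 or 2 of the Flox mice given DEX (0.0735 and 0.0676), replicate 3 or 4 of the Flox mice given PBS (0.0654 and 0.0517), or replicates 2, 3, or 4 of the GR iKO mice given DEX (0.0560, 0.0607, and 0.0565). *Sgk1* was gained without replicate 1 of the Flox mice given PBS (−2.84, limma adjusted p = 0.0132) or replicate 2 of the GR iKO mice given PBS (−2.68, limma adjusted p = 0.0462). Over all 14 fits the differences ran from −3.22 to −2.72 for *Scnn1b* and from −2.59 to −2.08 for *Hsd11b2*. Both calls were also lost with the pancreas covariate, at −2.96 for *Scnn1b* (limma adjusted p = 0.0560) and −2.38 for *Hsd11b2* (limma adjusted p = 0.0527), and with a replicate block, at −2.79 and −2.40 (limma adjusted p = 0.0634 for each). With normexp background correction, which adds a fixed offset to every signal, the *Scnn1b* difference was −1.74 and remained called (limma adjusted p = 0.0149).

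In the order of group means, Flox mice given DEX came first for *Sgk1*, *Scnn1b*, *Scnn1g*, *Hsd11b2*, and *Atp1b1*. The gap to the next group was free of overlap for *Sgk1* (15.42 against 12.88 in GR iKO mice given DEX), *Hsd11b2* (11.36 against 10.21 in GR iKO mice given PBS), and *Atp1b1* (14.93 against 14.33 in Flox mice given PBS). For *Scnn1b* (7.77 against 7.30) and *Scnn1g* (7.01 against 5.55), the next group was GR iKO mice given PBS and the arrays overlapped. Further down, neighboring groups of these 5 genes overlapped in every case. *Scnn1a* had the reverse order at the bottom on its brighter probe, with Flox mice given DEX last at 12.79 and without overlap with GR iKO mice given DEX at 13.13. On its dimmer probe, GR iKO mice given DEX were last at 5.27 and overlapped with Flox mice given DEX at 5.32. The share of all probes with such orders was not counted. Between the pairs of groups compared above, 3.66% to 15% of all probes lay apart in a given direction.

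*Fxyd4* and *Scnn1g* varied widely between mice of a group. *Fxyd4* spanned 7.73 log2 units among the Flox mice given PBS and 8.19 among the GR iKO mice given PBS, while *Nedd4l* spanned 0.14 and 0.32. The *Fxyd4* probe was well above background on 9 of the 14 arrays, at 4.15 to 10.76, and on the other 5 it read 1.54 to 3.06. *Hoxb13* ran from 11.72 to 14 on those 9 arrays and from 5.59 to 13.10 on those 5, and *Hoxb6* from 7.35 to 9.12 and from 8.46 to 12.26.

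The *Scnn1g* probe was well above background on 12 arrays, and the exceptions were replicate 2 of the GR iKO mice given DEX (3.74) and replicate 2 of the GR iKO mice given PBS (3.51), the arrays with the lowest *Hoxb13*. The *Scnn1b* level was not low on these arrays, at 6.65 and 7.77. With both arrays left out, the interaction was −2.80 for *Scnn1b* (limma adjusted p = 0.0612), −2.63 for *Hsd11b2* (limma adjusted p = 0.0310), −3.89 for *Scnn1g* (limma adjusted p = 0.228), and −2.76 for *Sgk1* (limma adjusted p = 0.0673), so that the *Scnn1b* call was lost and no other gained. With the position covariate, *Scnn1g* had a log2 change of 2.62 with DEX in Flox mice (limma adjusted p = 0.0665) and *Fxyd4* one of 0.98 (limma adjusted p = 0.814), against 1.80 and −1.21 without it. Where along the colon each piece was taken is not given in the sources used here, and the part of position in these levels was not tested beyond these fits.

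**Figure D3:**
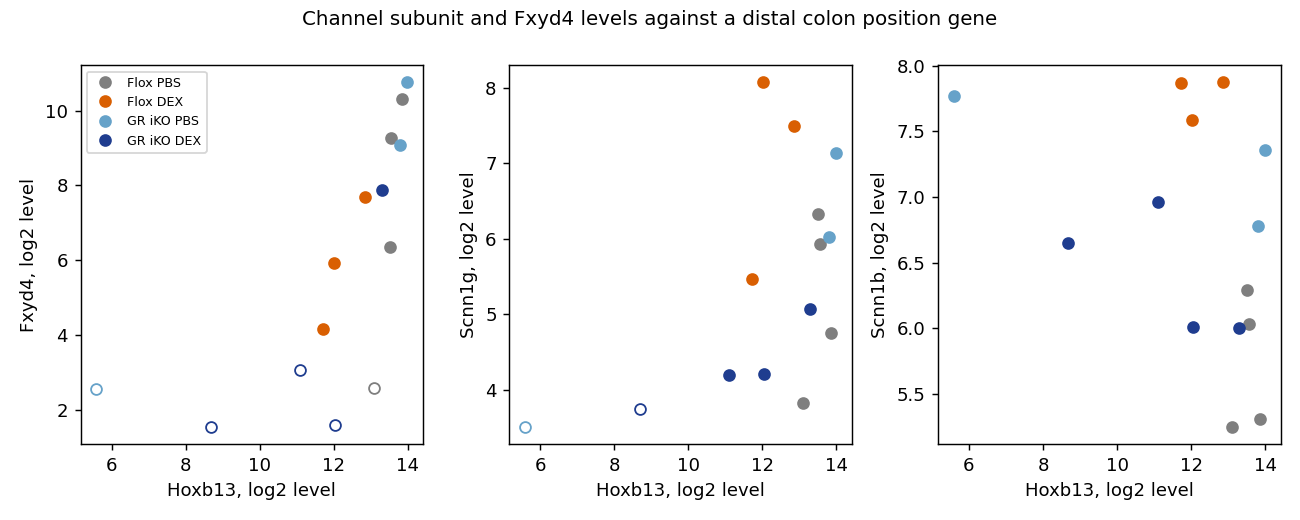
Log2 levels of *Fxyd4*, *Scnn1g*, and *Scnn1b* (y axes) against that of *Hoxb13* (x axis), with 1 point per array, colored by group, and open points where the gene on the y axis was not well above background. All *Fxyd4* values above 4 lie at *Hoxb13* levels of 11.72 or more, and the array with the lowest *Hoxb13* (5.59) has one of the highest *Scnn1b* levels (7.77).

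The rest of the pathway was read from a list of 66 genes, 65 of them on named probes, that act with SGK1 and ENaC, cleave the channel, form the pump, carry sodium, chloride, potassium, or water across the epithelium, or handle corticosteroids. With DEX in Flox mice, 3 of the 65 rose (*Slc9a3*, *Tsc22d3*, and *Aqp1*), none fell, and 62 were not called, against 1.53% of all probes called, and the list's median log2 change was 0.14. In GR iKO mice, 1 rose (*Tsc22d3*) and 1 fell (*Kcnj1*), against 4.26% of all probes called, with a median of 0.09. GR iKO mice differed from Flox mice in 1 gene under PBS (*Kcnj1*, higher, against 0.138% of all probes called) and in 2 under DEX (*Slc9a3* and *Nr3c1*, lower, against 0.192%), with medians of −0.01 and −0.10. No gene of the list was called in the interaction, against 0.136% of all probes. The medians of all probes in these 4 comparisons were 0.008, −0.02, 0.008, and −0.008.

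*Slc9a3* encodes NHE3, the exchanger that carries most electroneutral sodium absorption. It read 13.02, 12.06, 12.29, and 12.82 in Flox mice given PBS, 14.50, 14.06, and 14.19 in Flox mice given DEX, 12.17, 12.79, and 12.58 in GR iKO mice given PBS, and 12.26, 12.69, 12.25, and 12.65 in GR iKO mice given DEX. The Flox mice given DEX stood above the other 11 arrays, and the ranges of the other groups overlapped. The log2 change with DEX was 1.70 in Flox mice (SE 0.24, limma adjusted p = 0.00466) and −0.05 in GR iKO mice (limma adjusted p = 0.905), and the interaction of −1.76 was not called (limma adjusted p = 0.0685). Under DEX the difference between genotypes was −1.79 (limma adjusted p = 0.0134), and it was lost without replicate 1 of the Flox mice given DEX (−1.66, limma adjusted p = 0.0661).

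*Tsc22d3* encodes GILZ, a glucocorticoid-induced protein that also acts on ENaC, and it rose in both genotypes. It read 10.62 to 11.10 in Flox mice given PBS and 12.65 to 13.08 in those given DEX, a log2 change of 1.89 (limma adjusted p = 0.000633). In GR iKO mice it read 10.45 to 10.96 and 11.99 to 12.49, a change of 1.62 (limma adjusted p = 0.00103), and the interaction was −0.28 (95% CI −0.81 to 0.26, limma adjusted p = 0.665).

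*Aqp1*, a water channel gene, read 12.18 to 12.67 with PBS and 13.13 to 13.64 with DEX in Flox mice, a log2 change of 1.00 (limma adjusted p = 0.0331) at the 2-fold limit. It was called in 8 of 13 alternative fits and in 8 of the 14 fits that left out 1 array, being lost without any one of the 3 DEX arrays (adjusted p = 0.120, 0.0511, and 0.103 for replicates 1, 2, and 4 in limma) or without PBS replicates 2, 3, or 4 (0.0638, 0.0897, and 0.0791). With the position covariate its change was 0.76, under 2-fold.

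*Kcnj1*, which encodes the potassium channel ROMK, was well above background only in GR iKO mice given PBS, on 2 of the 3 arrays, at 4.14, 4.98, and 3.54. The mean of that group (4.22) was at least 1.5-fold higher than that of GR iKO mice given DEX (2.01) and at least 1.63-fold higher than that of Flox mice given PBS (1.78), with limma adjusted p of 0.00536 and 0.0254. These bounds set the bright group against the lowest signal well above background on each array of the dim group. The second call was lost without replicate 1 or 4 of the Flox mice given PBS (limma adjusted p = 0.0596 and 0.0680) or replicate 3 of the GR iKO mice given PBS (limma adjusted p = 0.0574). It was called in 7 of 13 alternative fits, and normexp gave 0.28 (limma adjusted p = 0.310) and, for the first call, −0.27, under 2-fold. The probe lies on row 309, in the middle of the 3 parts of the array, which held 35 of the 38 probes called higher in GR iKO mice under PBS.

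*Nr3c1*, which encodes GR, was the targeted gene. It read 10.80, 10.91, 10.87, and 10.70 in Flox mice given PBS, 10.54, 10.53, and 10.75 in Flox mice given DEX, 10.21, 9.86, and 9.68 in GR iKO mice given PBS, and 9.27, 9.32, 9.44, and 9.41 in GR iKO mice given DEX. Every GR iKO array was below every Flox array, by −0.91 under PBS (limma adjusted p = 0.0134, under 2-fold) and −1.24 under DEX (limma adjusted p = 0.00200). Without replicate 2 of the GR iKO mice given PBS, the difference under PBS was −1.05 and was called (limma adjusted p = 0.00105).

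**Figure D4:**
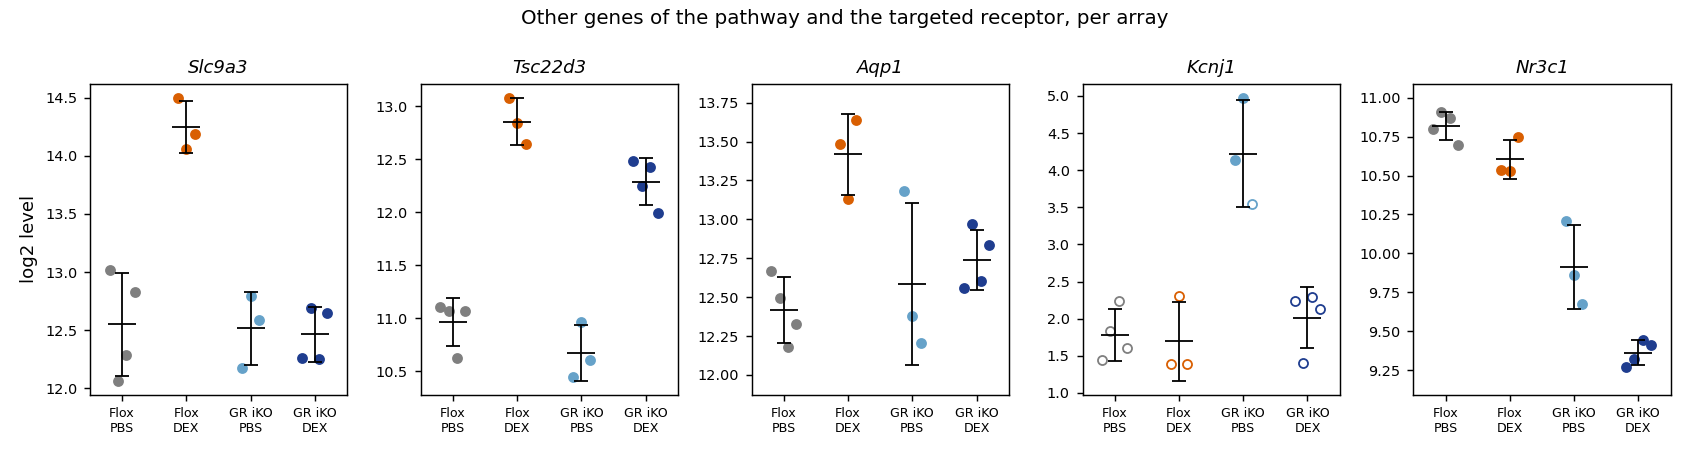
Log2 levels (quantile normalized, y axes differ between panels) of 5 other genes on each array, with 1 point per mouse, group mean and SD as black bars, and open points where the probe was not well above background. *Slc9a3* is high only in Flox mice given DEX, *Tsc22d3* is high in both DEX groups, and *Nr3c1* is lower on all 7 GR iKO arrays than on all 7 Flox arrays.

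Among the genes of the list with a smaller change, *Prss8*, which encodes a channel-activating protease, differed with DEX in Flox mice by 0.47 (limma adjusted p = 0.0233). *Slc12a2*, which encodes the basolateral cotransporter of sodium, potassium, and chloride, differed by 0.78 in Flox mice (limma adjusted p = 0.00941) and, without epithelial GR, by 0.58 (limma adjusted p of 0.0168). *Aqp8* (−0.92, limma adjusted p = 0.0412), a water channel gene of the colon surface, and *Car4* (−0.90, limma adjusted p = 0.0496), a carbonic anhydrase gene, differed the other way in Flox mice. *Slc9a3r1*, which encodes the NHE3 scaffold NHERF1, was lower with DEX in Flox mice by −0.76 (limma adjusted p = 0.00611), opposite in sign to *Slc9a3*. All 5 were under 2-fold and were named after their values had been seen.

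The genes most like *Sgk1* over the 14 arrays, among 15643 genes searched, were *Eif4ebp3* (Pearson r = 0.965), *Ermp1* (0.946), *Rhou* (0.945), *Npc1* (0.936), and *Fkbp5* (0.935). Without the 3 Flox mice given DEX, their r over 11 arrays was 0.730, 0.662, 0.738, 0.374, and 0.701. For *Hsd11b2* they were *Acy1* (0.961), *Phka1* (0.905), *Fam43a* (0.876), *Rsl24d1* (0.875), and *Pde9a* (0.874), and without Flox mice given DEX *Phka1* was at 0.913 and *Pde9a* at 0.467. For *Scnn1b* they were *Slc25a24* (0.873), *Mrpl12* (0.842), *Dip2c* (0.832), *1600029I14Rik* (0.828), and *Pdcd6* (0.810), and without Flox mice given DEX their r was 0.833, 0.743, 0.748, 0.735, and 0.856. Arrays of a group share a slide and a treatment, and these values are descriptions of likeness only.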

How the data were processed

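Colon RNA of 14 mice was hybridized to 1-color Agilent arrays, 1 per mouse, and read with Agilent Feature Extraction 12.0.0.7 per the file headers. The authors deposited a table of log2 values, with Partek 6.6 named in the submitters' processing notes, and scanner files with background-subtracted intensity per spot. The log2 columns have the same sorted values within 0.0024 and equal quantile-normalized log2 intensity within 0.0432 for probes with 1 spot. For 245 probes with several spots the averaging rule is not given in the sources used here. Groups came from the sample titles, since the treatment text describes DEX for every sample.

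Probes were named through RefSeq accessions (28223 of 41174), and of a gene's probes the one with the highest mean was used. Limma 3.58.1 in R 4.3.3 was fitted to the authors' log2 table with 4 group means and 5 contrasts, with Benjamini-Hochberg adjustment over all probes, after testing on simulated data. Calls needed an adjusted p under 0.05 and 2-fold. Bounds were computed for probes not well above background in a whole group. No slide block could be fitted. The precision is limited by the number of arrays, and p-values measure the spread between mice. Named genes were all members, the pathway genes called in any contrast, *Nr3c1*, and the 5 genes most like each of *Sgk1*, *Scnn1b*, and *Hsd11b2*. A further 5 pathway genes under 2-fold were named after their values had been seen. The members, lists, and tests were chosen with earlier results of these data known. Alternatives were scanner intensity scaled to the 75th percentile, normexp (offset 50) with quantile normalization, a filter on dim probes, fits of only the groups compared, no fold minimum, the methods' t-test, a replicate block, the mean of all probes, normalization within 3 parts of the array rows or without the last, each array left out, and 3 fits added after seeing the data. One result of the pathway list is not reported here.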

Additional observations from a re-analysis of the deposited data

Results flagged for a closer look

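The DEX response differed between the genotypes by a log2 difference of −2.37 for *Hsd11b2* and −2.95 for *Scnn1b*, each by the limma interaction term given in the report. In 3 of 56 sets of 4 arrays, 1 array lay far from its group, where about 2.8 are expected by chance. *Nedd4l* in Flox mice given PBS was at 9.06 in replicate 1 and at 8.91 to 8.92 in the others (the gap was 0.961 of the range). *Tsc22d3* in Flox mice given PBS was at 10.62 in replicate 3 and at 11.06 to 11.10 in the others (0.919 of the range). The mean of the epithelium markers in GR iKO mice given DEX was 16.09 in replicate 2, one of the arrays with low *Hoxb13*, and 15.92 to 15.93 in the others (0.958 of the range).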

How the results depend on the processing

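Of 1893 values of named genes under another setting, 1758 kept their direction and their side of the threshold, 55 lost a call, 23 gained one, and 57 turned in sign, all 57 of them in differences that were not called. The number of members called with DEX in Flox mice (3) was 0 by the methods' t-test after Benjamini-Hochberg adjustment, and 2 to 3 leaving out 1 array. In GR iKO mice (0) it was 1 with no fold minimum or without the arrays with low *Hoxb13*, and 0 to 1 leaving out 1 array. Between genotypes under PBS (0) it was 1 by the methods' t-test unadjusted or normalized within 3 parts of the rows. Under DEX (2) it was 4 by the unadjusted t-test, 0 after adjustment, 1 without the last part of the rows, and 0 to 2 leaving out 1 array. For the interaction (2) it was 1 without the last part of the rows and 1 without the arrays with low *Hoxb13*. It was 0 with the pancreas covariate (limma adjusted p = 0.0560 for *Scnn1b* and 0.0527 for *Hsd11b2*). Leaving out 1 array it was 0 to 3, with 0 without replicate 1 of the Flox mice given DEX. The *Hsd11b2* probe lies in the last part of the rows. The fit without that part leaves *Hsd11b2* out, so the lower counts of that fit do not test this gene.

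The number of genes of the pathways list called was, with DEX in Flox mice (3), 11 with no fold minimum, 0 by the adjusted t-test, 1 without the last part, and 2 to 4 leaving out 1 array. In GR iKO mice (2) it was 4 on scaled scanner signal, 10 with no fold minimum, 1 each with normexp, the dim filter, and the adjusted t-test, and 2 to 3 leaving out 1 array. Under PBS (1) it was 3 with no fold minimum, 2 each with the position covariate and without the low *Hoxb13* arrays, 0 each with normexp, the dim filter, only the groups compared, the adjusted t-test, the block, and the pancreas covariate, and 0 to 2 leaving out 1 array. Under DEX (2) it was 4 with no fold minimum, 1 with the block, 0 by the adjusted t-test and without the last part, and 1 to 2 leaving out 1 array. For the interaction (0) it was 1 each with the dim filter and within 3 parts of the rows, and 0 to 1 leaving out 1 array. The probes of *Slc9a3*, *Aqp1*, and *Nr3c1* (rows 528, 422, and 476) lie in the last part of the rows. The fit without that part leaves them out, so its lower counts do not test these genes.

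A replicate block was fitted because the titles share replicate numbers, and it called 0 members in the interaction (limma adjusted p = 0.0634 for *Scnn1b* and for *Hsd11b2*). Whether the numbers pair the mice cannot be settled from these values. Over 18 same-numbered pairs in different groups, the correlation of deviations ran from −0.24 to 0.31, with a median of 0.04, and 8 were over 0.1. Over 55 pairs of different number it ran from −0.46 to 0.36, with a median of −0.01, and 18 were over 0.1. Of the 14 arrays, 5 correlated best with an array of their own number, and the number expected without pairing was not computed. With the block, *Nedd4l* in Flox mice was −0.01, *Atp1b1* was −0.02 in GR iKO mice and 0.02 between genotypes under PBS, *Slc9a3* under PBS was 0.03, and *Kcnj1* in Flox mice was 0.09.

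Signs also turned as follows. *Scnn1a* in GR iKO mice was −0.05 with normexp, −0.27 as the mean of its probes, and −0.36 without the low *Hoxb13* arrays (−0.38 to 0.21 leaving out 1 array), and under PBS 0.07 without those arrays (−0.53 to 0.07). *Nedd4l* in Flox mice was −0.02 with normexp and −0.08 with the position covariate (−0.07 to 0.08). *Nr3c2* under DEX was −0.05 with the pancreas covariate (−0.14 to 0.19), and ran from −0.11 to 0.02 under PBS and from −0.11 to 0.22 in the interaction. *Atp1b1* in GR iKO mice was −0.07 with normexp, −0.02 within 3 parts of the rows, and −0.12 without the low *Hoxb13* arrays (−0.10 to 0.11), and under PBS 0.01 with normexp, 0.07 with the position covariate, and 0.10 without those arrays (−0.12 to 0.10). *Fxyd4* was 0.98 in Flox mice with the position covariate, and under PBS −0.19 with the pancreas covariate (−1.31 to 2.78), where *Scnn1g* ran from −0.44 to 1.37. *Slc9a3* under PBS was 0.06 as the mean of its probes, 0.04 with the position covariate, and 0.14 without the low *Hoxb13* arrays (−0.19 to 0.14), and in GR iKO mice ran from −0.23 to 0.08. *Kcnj1* in Flox mice was 0.01 with normexp and 0.05 with the position covariate (−0.39 to 0.07). *Aqp1* under PBS was −0.08 with the position covariate and −0.13 without the low *Hoxb13* arrays (−0.13 to 0.36), and in GR iKO mice ran from −0.04 to 0.45. The cause was not tested, and signal over background limits *Fxyd4*, *Scnn1g*, and *Kcnj1*.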
